A study of Mus musculus with 32 samples.

Results

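Acta2, Tagln, Cnn1, Cnn2, Myl9, Tpm1, Tpm2, Pdlim1, Pdlim5 and Pdlim7 encode proteins of the contractile actin apparatus and the PDZ-LIM adaptors that sit on it. They are 10 of the 41388 gene identifiers in the count tables, found by mouse symbol, and were followed here in cultured mouse chondrocytes of 2 inbred strains. Acta2 and Pdlim1 were chosen because they differed between the strains in these same libraries, so their strain values are given as a description with no test. The other 8 were added as genes of the same apparatus, with earlier results of these data known. They were read in the same libraries and several vary with Acta2, so they are not independent evidence of its difference.

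The study profiled RNA of primary chondrocytes, the cells of cartilage, isolated at postnatal day 21 from the heads of mouse femurs, in the strains LG/J and SM/J, and collected without passaging after 4 days of culture in medium with 10% fetal bovine serum. LG/J females, LG/J males, SM/J females and SM/J males gave 8 libraries each, 32 in all, and the labels name no engineered allele or drug in any group. The strains are inbred lines, and the study's title names cartilage regeneration and degeneration as its subject. Nothing in the labels says whether the 8 libraries of a group came from separate mice or cultures, so the p-values below measure the spread between libraries, which may be technical.

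Actin filaments carry tropomyosin along their length and are pulled by bipolar filaments of myosin II, and bundles of both make the stress fibres by which a spread cell grips its support. Many of the genes of this apparatus share a regulator, serum response factor (SRF), whose cofactors of the MRTF family enter the nucleus when monomeric actin is used up. Chondrocytes in cartilage are round with cortical actin; on plastic they flatten, form stress fibres and lose cartilage matrix gene expression. PDZ-LIM proteins bind alpha-actinin or tropomyosin through the PDZ domain and bring signalling proteins to the filaments through their LIM domains.

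The upstream sequences are shown first because SRF binds a short element, the CArG box, that lies close to the start of many contractile genes. RefSeq promoters of the GRCm38.p6 build, the C57BL/6J reference and not LG/J or SM/J sequence, were matched to 9 of the 10 genes by symbol, all but Tagln. The 250 bases before the annotated start are printed 5′ to 3′ on the strand of the gene, with CArG boxes and matches with 1 letter changed in capitals. They lie at chr19:34255374-34255623 on the minus strand for Acta2, chr10:79988350-79988599 on the plus strand for Cnn2, chr2:156775214-156775463 on the plus strand for Myl9, chr9:67049214-67049463 on the minus strand for Tpm1 and chr19:40271617-40271866 on the minus strand for Pdlim1. The first 4 are the members with a match, and Pdlim1 is shown as the member whose level differed most between the strains.
Acta2: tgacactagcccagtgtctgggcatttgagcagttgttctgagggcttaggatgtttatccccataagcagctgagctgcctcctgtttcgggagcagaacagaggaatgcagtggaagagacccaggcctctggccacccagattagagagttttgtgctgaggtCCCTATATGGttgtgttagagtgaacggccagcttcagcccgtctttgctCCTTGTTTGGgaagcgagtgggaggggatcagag
Cnn2: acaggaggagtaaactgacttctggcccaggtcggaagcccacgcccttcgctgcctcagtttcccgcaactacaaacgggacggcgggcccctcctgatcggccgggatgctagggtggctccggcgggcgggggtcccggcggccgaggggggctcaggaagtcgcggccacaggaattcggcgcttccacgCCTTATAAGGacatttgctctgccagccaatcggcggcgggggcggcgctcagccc
Myl9: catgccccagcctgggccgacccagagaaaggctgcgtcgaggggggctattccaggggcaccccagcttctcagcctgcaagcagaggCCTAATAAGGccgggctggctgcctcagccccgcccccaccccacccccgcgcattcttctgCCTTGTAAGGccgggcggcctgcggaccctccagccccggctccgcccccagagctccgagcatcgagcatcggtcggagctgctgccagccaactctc
Tpm1: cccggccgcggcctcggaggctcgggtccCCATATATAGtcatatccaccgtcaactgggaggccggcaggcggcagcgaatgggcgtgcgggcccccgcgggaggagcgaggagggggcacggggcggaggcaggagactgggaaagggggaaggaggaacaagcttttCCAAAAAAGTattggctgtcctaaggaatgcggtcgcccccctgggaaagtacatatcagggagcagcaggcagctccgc
Pdlim1: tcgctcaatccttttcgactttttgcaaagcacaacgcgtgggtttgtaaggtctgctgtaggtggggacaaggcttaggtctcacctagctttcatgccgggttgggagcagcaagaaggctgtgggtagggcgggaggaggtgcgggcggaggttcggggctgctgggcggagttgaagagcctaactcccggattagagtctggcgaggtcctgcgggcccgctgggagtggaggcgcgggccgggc

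The search ran on both strands of windows of 300 bases, from 250 before to 50 after the start. Cnn2 held an exact CArG box whose first base lay 56 bases before the start, and Myl9 held one at 161 bases with a second element, 1 letter changed, at 99 bases. Acta2 had no exact match but had elements with 1 letter changed at 84 and 34 bases. Tpm1 had such elements at 221 and 80 bases. Over all 32851 promoters of that length, 1.63% held an exact CArG box and 21.1% one with at most 1 letter changed, so the looser match is common. GGAATG, a core of the element bound by TEAD factors, was found at 146 bases in Acta2 and at 56 bases in Tpm1, and in 14.7% of all promoters. Neither motif was found in the windows of Cnn1, Tpm2, Pdlim1, Pdlim5 or Pdlim7.

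Library totals ran from 15840330 to 25571598 counts. Levels below are CPM, a share of the library total, scaled by the trimmed mean of M-values (TMM), a library-size correction. All 10 genes passed the filter on low counts, with 16136 genes kept. Mean Col2a1, the main cartilage collagen and a defining transcript of chondrocytes, was 9219 ± 3585 CPM in LG/J and 8205 ± 2078 in SM/J (SD, n = 16). The LG/J mean includes 2 libraries with far lower levels. Certain libraries stand apart. LG/J female 1 and LG/J male 1 had Acan, the aggrecan of cartilage, at 48.21 and 67.67 CPM against 1177 to 3362 in the other LG/J libraries. Their Col2a1 was 629.3 and 1379 CPM against 7536 to 14862. Il6, an inflammatory cytokine, was 63.87 and 39.77 CPM in them against 0 to 0.9612. Spp1, or osteopontin, was 180490 and 164256 CPM in them, with a median of 3748 over all 16 LG/J libraries. A set of 6 libraries (females 4 and 5 of LG/J, with females 3 and 4 plus males 2 and 3 of SM/J) held transcripts of both sexes and is called the mixed-sex set below: Xist from 16.31 to 54.03 CPM together with the Y-linked Ddx3y from 19.58 to 118.7 CPM. In the other libraries labelled male Xist reached at most 0.6062 CPM, and in those labelled female Ddx3y reached at most 1.265 CPM. Pairs of libraries with consecutive numbers, 6 in all, were the closest of all within-group pairs, with a chi-square of 5.3 to 7.9 per gene against a median of 91.25 over the 112 pairs. That is still above the value near 1 that counting error alone would give, and they were kept as separate libraries in the main fit. Such a value does not show that the libraries of a pair came from separate cultures. The next closest pairs, from 11.1 for SM/J females 7 and 8 to 14.8 for SM/J males 2 and 3, were not summed. Results are given also without the libraries that stand apart, and with the close pairs summed.

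Measured between the strains, smooth muscle actin and transgelin were several-fold lower in LG/J chondrocytes, and Cnn2, Tpm1, Tpm2 and Pdlim5 were lower by a factor of 1.75 to 2.1. Of the 8 members tested for strain, 5 were lower in LG/J at an adjusted p under 0.05 and 0 were higher (edgeR quasi-likelihood test, Benjamini-Hochberg adjustment over all genes). The 8 were not chosen blind to these libraries, which limits what their p-values and this count can show. Among all 16136 genes tested, 29.9% were called, 13.5% lower in LG/J and 16.4% higher. The median log2 difference was -0.86 over the 8 tested members and 0.02 over all genes. Cnn1, Myl9 and Pdlim7 were not called. Without both LG/J libraries numbered 1, 5 of 8 were lower, where 15.1% of all genes were. With the close pairs summed it was also 5 of 8, against 9.76%. The edgeR adjusted p of all 5 then rose, to 0.0149 for Tagln, 0.0191 for Cnn2, 0.00354 for Tpm1, 0.0297 for Tpm2 and 4.77e-05 for Pdlim5. Without the mixed-sex set 3 of 8 were lower, Tagln, Tpm1 and Pdlim5, against 10.4%, and 3 without both sets, against 10.8%. The estimates of the 8 tested members were all below 0 over all libraries, and those of Cnn1 and Myl9 change sign in some of the alternatives given beside them.

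**Figure D1:**
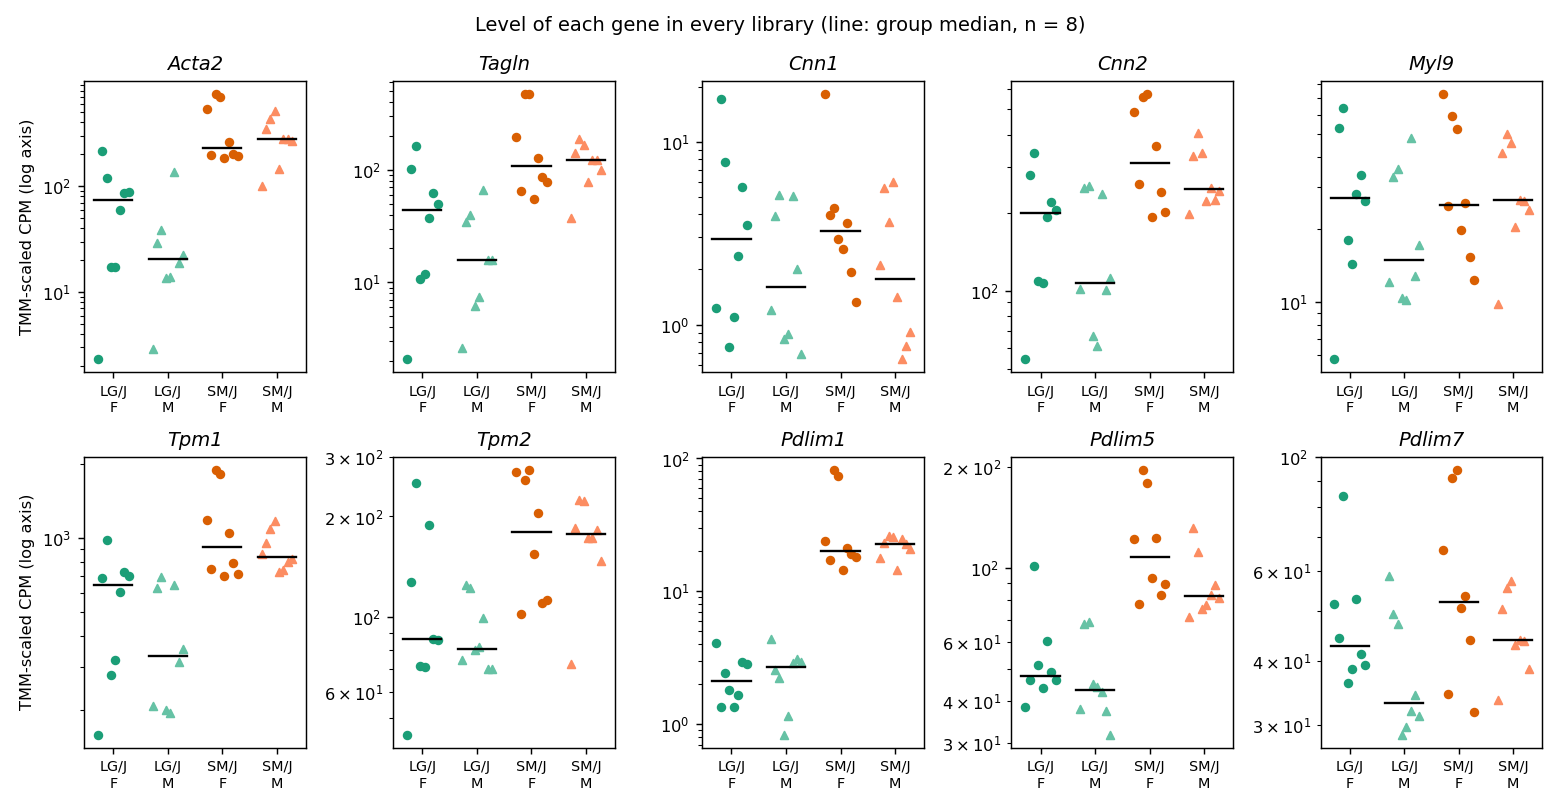
TMM-scaled CPM of each gene (y axis, log scale) in every library, by strain and sex (x axis, F female and M male), with each library a point and the group median a line (n = 8). Pdlim1 separates the strains completely, with LG/J between 0.8345 and 4.355 CPM and SM/J from 14.43 CPM up, while Cnn1 and Myl9 overlap nearly throughout.

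Acta2 (ENSMUSG00000035783, chr19:34241090-34255336 in GRCm38) encodes the alpha actin of smooth muscle, which is also built into the stress fibres of myofibroblasts. In LG/J females it ranged from 2.343 to 217.3 CPM with a median of 73.32. In LG/J males it ranged from 2.904 to 135.7 with a median of 20.76. In SM/J females the range was 183.4 to 739.2 with a median of 230.4, and in SM/J males 100.2 to 511.5 with a median of 280.5. The groups overlapped at the edge: 13 of 16 LG/J libraries lay below every SM/J library, and the other 3, females 2 and 3 and male 6, lay at 217.3, 119.5 and 135.7 CPM. The means were 55.3 ± 60.13 CPM in LG/J and 335.7 ± 194.2 in SM/J (SD, n = 16). The fitted difference was -2.70 ± 0.47 on the log2 scale (LG/J minus SM/J, SE), which is 6.5-fold lower, and it is a description because the gene was picked on it.

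The spread of Acta2 within a strain was wide. The highest LG/J library was 92.7 times the lowest, and still 15.9 times the lowest after LG/J female 1 and male 1 were left out; in SM/J the ratio was 7.38. These 2 LG/J libraries, low in Acan, held the lowest Acta2 of the series. SM/J females 3 and 4, a close pair with transcripts of both sexes, held the highest, 739.2 and 703.5 CPM, and SM/J female 3 also held the lowest Col2a1 and Acan of its strain, 4551 and 518.1 CPM. Without both LG/J libraries numbered 1 the difference was -2.51 ± 0.40, without the mixed-sex set -2.20 ± 0.49, and without either set -1.96. In bulk RNA, fewer cells of a type and less RNA per cell cannot be told apart.

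Tagln (ENSMUSG00000032085, chr9:45929628-45936058) encodes transgelin, or SM22 alpha, a calponin-family protein that bundles actin. LG/J females had 2.096 to 163.4 CPM with a median of 43.47. LG/J males had 2.588 to 65.55 with a median of 15.75. SM/J females had 54.76 to 467.2 with a median of 107.5, and SM/J males 37.06 to 188.3 with a median of 122.2. The strains overlapped, with 10 of 16 LG/J libraries below every SM/J library. The order of libraries followed that of Acta2 closely, down to the same lowest pair in LG/J and the same highest pair in SM/J. Tagln was 4.22-fold lower in LG/J, a log2 difference of -2.08 ± 0.47 (edgeR adjusted p = 0.00104), and -1.35 ± 0.47 without the mixed-sex set (edgeR adjusted p = 0.0376). It shares 65 exonic bases with Pcsk7 on the opposite strand, at 39.92 CPM on average, and no source used here says whether the counting used strand. Gm48529, an antisense gene absent from the counts, matches Tagln at 100% identity over 404 bases.

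The calponins bind actin and restrain its sliding over myosin. Cnn1, or basic calponin, marks differentiated smooth muscle, and Cnn2 is the more widely expressed form. Cnn1 (ENSMUSG00000001349, chr9:22099281-22109630) was scarce, at 0.7565 to 17.12 CPM in LG/J females (median 2.936), 0.6864 to 5.129 in LG/J males (median 1.605), 1.323 to 18.18 in SM/J females (median 3.263) and 0.6494 to 6.054 in SM/J males (median 1.767). The groups overlapped nearly throughout. The log2 strain difference was -0.03 ± 0.45 (edgeR adjusted p = 0.965), with a 95% interval from -0.91 to 0.84, so a change of nearly 2-fold either way cannot be told from none. Its sign turned with the library set, to 0.28 without the mixed-sex set.

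Cnn2 (ENSMUSG00000004665, chr10:79988584-79996062) was abundant. It had 54.56 to 339.4 CPM in LG/J females (median 198.6) and 61.15 to 253.2 in LG/J males (median 106.7). SM/J females had 192.6 to 571.9 (median 309.8) and SM/J males 197.3 to 404.1 (median 246.1). SM/J libraries were higher as a group, with 9 of 16 LG/J libraries below every SM/J library. The log2 difference was -0.92 ± 0.24 (edgeR adjusted p = 0.0036). Without the mixed-sex set it was -0.59 ± 0.26 and no longer passed (edgeR adjusted p = 0.099).

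Tropomyosins lie end to end in the groove of the actin filament and gate the access of myosin. Tpm1 (ENSMUSG00000032366, chr9:67022590-67049406) had 159.2 to 983.2 CPM in LG/J females (median 643) and 194.1 to 692.6 in LG/J males (median 332.5). SM/J females had 703.4 to 1887 (median 918.5) and SM/J males 723.9 to 1175 (median 837.6). Here 14 of 16 LG/J libraries lay below every SM/J library, more than for Acta2 although the fold was smaller. Tpm1 was 2.1-fold lower in LG/J, -1.07 ± 0.23 on the log2 scale (edgeR adjusted p = 0.00049), and stayed past the threshold without the mixed-sex set (edgeR adjusted p = 0.0199). Tpm2 (ENSMUSG00000028464, chr4:43514711-43523765) had 44.76 to 252.4 CPM in LG/J females (median 86.14) and 70.11 to 124.6 in LG/J males (median 80.66). SM/J females had 102.6 to 275.3 (median 179.3) and SM/J males 72.42 to 224 (median 177.6). Only 5 LG/J libraries lay below every SM/J library, because SM/J male 1 was as low as the LG/J males. The log2 difference of Tpm2 was -0.81 ± 0.20 (edgeR adjusted p = 0.00286), and -0.56 ± 0.22 without the mixed-sex set (edgeR adjusted p = 0.071).

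Myl9 (ENSMUSG00000067818, chr2:156775420-156781658) encodes the regulatory light chain of myosin II, whose phosphorylation switches contraction on. It had 5.795 to 64.1 CPM in LG/J females (median 27.1), 10.16 to 47.74 in LG/J males (median 14.97), 12.3 to 72.83 in SM/J females (median 25.31) and 9.779 to 49.97 in SM/J males (median 26.42). The strains overlapped almost completely. The log2 difference was -0.33 ± 0.31 (edgeR adjusted p = 0.455), with a 95% interval from -0.94 to 0.27, and 0.05 without the mixed-sex set. Myl9 ranked libraries within a group much as Acta2 did, as given below.

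**Figure D2:**
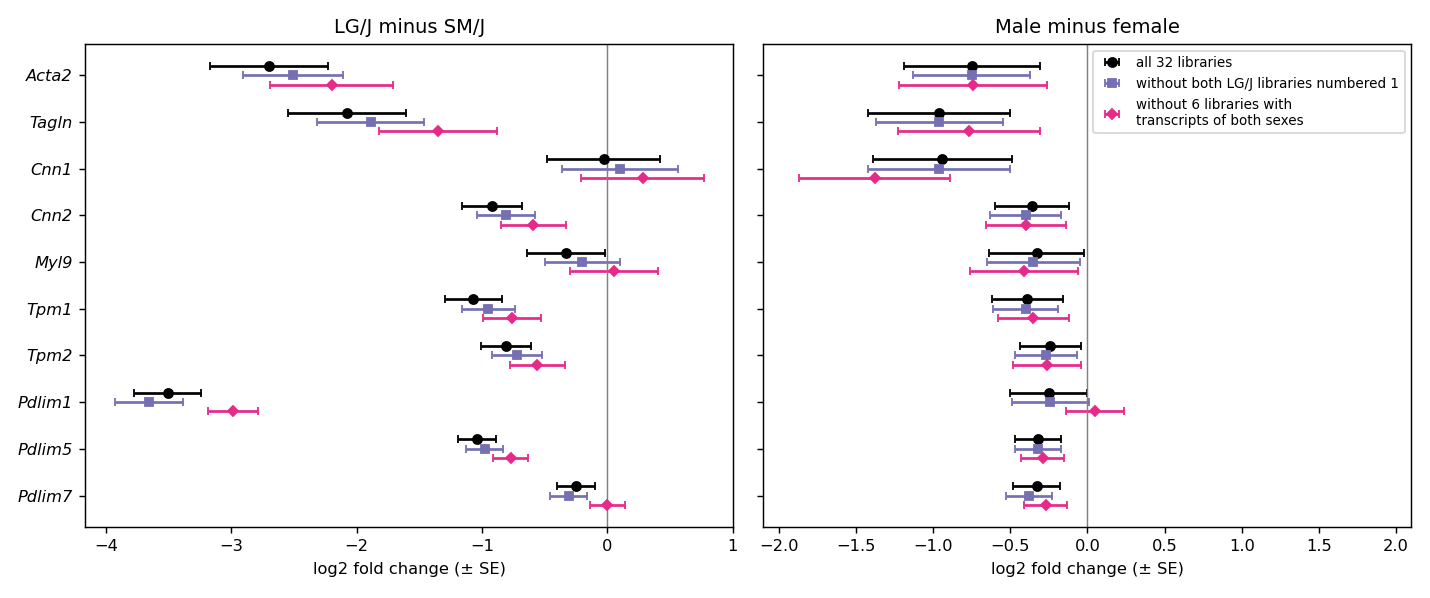
Log2 fold change of each gene with its standard error (x axis) for LG/J minus SM/J and for male minus female, over all 32 libraries, without both LG/J libraries numbered 1, and without the mixed-sex set of 6 libraries. The strain estimates of Acta2 and Pdlim1 lie below -2 under all 3 sets, and those of Cnn1 and Myl9 fall on both sides of 0.

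The PDZ-LIM genes gave strain differences from -3.51 to -0.25 on the log2 scale. Pdlim1 (ENSMUSG00000055044, chr19:40221173-40271842), also called CLP36, carries a single LIM domain and ties alpha-actinin to stress fibres. It had 1.334 to 4.069 CPM in LG/J females (median 2.114) and 0.8345 to 4.355 in LG/J males (median 2.704). SM/J females had 14.43 to 81.91 (median 20.08) and SM/J males 14.46 to 26.13 (median 22.86). No LG/J library reached the level of any SM/J library; among all genes tested, 1.26% were lower in LG/J without overlap, and nothing is read from this for a gene picked on the same contrast. The fitted difference was -3.51 ± 0.27 on the log2 scale, 11.4-fold lower in LG/J. The LG/J level rested on few reads, 19 to 70 counts per library.

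SM/J females 3 and 4 stood far above the rest of their strain in Pdlim1, at 81.91 and 73.96 CPM against 14.43 to 26.13 in the other 14 SM/J libraries. Without the mixed-sex set, which includes them, the difference was -2.99 ± 0.20. LG/J female 1 and male 1, the lowest libraries in Acta2 and Tagln, were the highest LG/J libraries in Pdlim1, at 4.069 and 4.355 CPM, and without them the difference was -3.66 ± 0.27. Pdlim1 has a processed pseudogene copy, Gm5864, 97.044% identical over 981 bases and not used here, so reads could be split between the copies. Cnn2 and Pdlim5 have less similar pseudogene copies, 91.106% identical over 416 bases and 93.214% over 280 bases, also not used here.

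Pdlim5 (ENSMUSG00000028273, chr3:142239586-142395696), also called ENH, binds alpha-actinin and protein kinase C. It had 38.41 to 101.5 CPM in LG/J females (median 47.55) and 31.82 to 68.97 in LG/J males (median 43.32). SM/J females had 77.73 to 195.6 (median 107.5) and SM/J males 71.15 to 131 (median 82.22). All LG/J libraries but female 3 lay below every SM/J library. The log2 difference was -1.04 ± 0.15 (edgeR adjusted p = 1.57e-06), the smallest p of the 8 tested members, and the gene was called under every alternative, with adjusted p at most 0.000461. Pdlim7 (ENSMUSG00000021493, chr13:55495795-55513676), also called Enigma, binds tropomyosin and is known in bone as LIM mineralization protein. It had 36.26 to 84.04 CPM in LG/J females (median 42.74), 28.72 to 58.64 in LG/J males (median 33.13), 31.85 to 94.5 in SM/J females (median 52.17) and 33.51 to 57.33 in SM/J males (median 43.86). These ranges overlapped, and the log2 difference was -0.25 ± 0.15 (edgeR adjusted p = 0.211), with a 95% interval from -0.54 to 0.04.

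The group order was the same for 7 genes, Acta2, Tagln, Cnn2, Myl9, Tpm1, Tpm2 and Pdlim5: SM/J females highest by mean, then SM/J males, LG/J females and LG/J males. Neighbouring groups in that order lay within their SDs for these genes, except SM/J males and LG/J females for Acta2. For Pdlim1 the step between the strains was also beyond the SDs, and its LG/J males stood above the LG/J females. Per kilobase of exon, a different gene led by mean in each strain. Acta2 and Pdlim1 were picked on their strain difference, so their change of rank is a description. In LG/J the mean level was highest for Tpm1 at 74.08 CPM per kb, then Cnn2 at 68.2, Tpm2 at 35.49 and Acta2 at 31.05. In SM/J Acta2 led at 188.5 ± 109 CPM per kb, ahead of Tpm1 at 154.7 ± 56.91 (SD, n = 16), Cnn2 at 129 and Tagln at 98.19. The Acta2 and Tpm1 means in SM/J differed by less than their SDs. The lowest was Pdlim1 in LG/J, at 0.4563 CPM per kb, and Cnn1 in SM/J, at 1.585.

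No member was called for sex. Of the 10 genes, 0 passed in edgeR, 0 in DESeq2 and 0 in limma voom, where 3.46%, 6.38% and 10.7% of all genes did. At an unadjusted p under 0.05, 4 of 10 passed in edgeR, Tagln, Cnn1, Pdlim5 and Pdlim7, against 18.8% of all genes. All 10 estimates were lower in males, from -0.96 ± 0.46 for Tagln to -0.24 ± 0.20 for Tpm2 on the log2 scale, with adjusted p from 0.211 to 0.623. The estimate for Pdlim1, -0.25 ± 0.25, turned to 0.05 without the mixed-sex set. For Acta2 it was -0.75 ± 0.44, with a 95% interval from -1.61 to 0.11.

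The strain difference was not detectably different between the sexes. For the interaction no member passed in edgeR, where 0.0062% of all genes did, in DESeq2, where 0.31% did, or in limma voom, where 1.59% did. In edgeR 0 of 10 passed at an unadjusted p under 0.05, against 8.34% of all genes. The interaction was -0.79 ± 0.88 for Acta2, with a 95% interval from -2.51 to 0.92, and 0.74 ± 0.49 for Pdlim1, from -0.23 to 1.71. These intervals allow strain differences that differ by more than 2-fold between the sexes. For Acta2 the estimate was -1.48 ± 0.96 without the mixed-sex set and -1.57 ± 0.74 without both sets, and it ran from -1.56 to -0.34 when 1 library at a time was left out, with no call. For Pdlim1 the sign turned, to -0.16, without the mixed-sex set.

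Within groups, the library-to-library order of Tagln, Myl9, Tpm1 and Cnn2 was close to that of Acta2, and that of the PDZ-LIM genes was less so over all libraries. The measure was Spearman's rho of log2 CPM after the 4 group means were subtracted, over 32 libraries, and it is a description because the points share libraries and depth. Among 8357 other genes with mean log2 CPM of at least 3, Tagln was the most like Acta2, with rho 0.96. Myl9 was the fifth, with rho 0.90, Tpm1 had rank 8 with 0.89 and Cnn2 rank 11 with 0.87. Tpm2 followed at rank 106 with 0.74, Pdlim5 at rank 541 with 0.58 and Pdlim7 at rank 1049 with 0.47. Cnn1, under that level, had rho 0.68.

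The other genes most like Acta2 were Gadd45g, a stress-response gene, with rho 0.93, Arhgap1, a GTPase-activating protein, with 0.92, and Sept11, a septin, with 0.91. Their strain differences were -0.84 ± 0.20, -0.08 ± 0.08 and -1.24 ± 0.15 on the log2 scale. A gene could thus follow Acta2 from library to library and differ little between the strains, as Arhgap1 did. Myl9 also followed Acta2 and was not called for strain, but its 95% interval from -0.94 to 0.27 is wide. For Pdlim1, Acta2 ranked only 1064 of 8358 genes with rho 0.38. The genes most like Pdlim1 were Ppme1, a phosphatase methylesterase, with rho 0.86, Rhod, a small GTPase, with 0.78, Hsph1, a heat shock protein, with 0.78, Leo1, a subunit of the PAF1 complex, with 0.77, and Prr13 with 0.75. Without the LG/J libraries numbered 1, Pdlim1 had rho 0.65 with Acta2, 0.69 with Tagln, 0.66 with Cnn2 and 0.72 with Tpm1, against 0.38, 0.40, 0.46 and 0.45 over all libraries. Acta2 then had 0.95 with Tagln, 0.67 with Tpm2, 0.46 with Pdlim5 and 0.69 with Pdlim7. The low values of Pdlim1 with Acta2, Tagln, Cnn2 and Tpm1 over all libraries therefore depend on that pair of libraries. With Tpm2 and Cnn1 Pdlim1 stayed low without the pair, at 0.34 and 0.29, against 0.16 and 0.20 over all libraries.

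**Figure D3:**
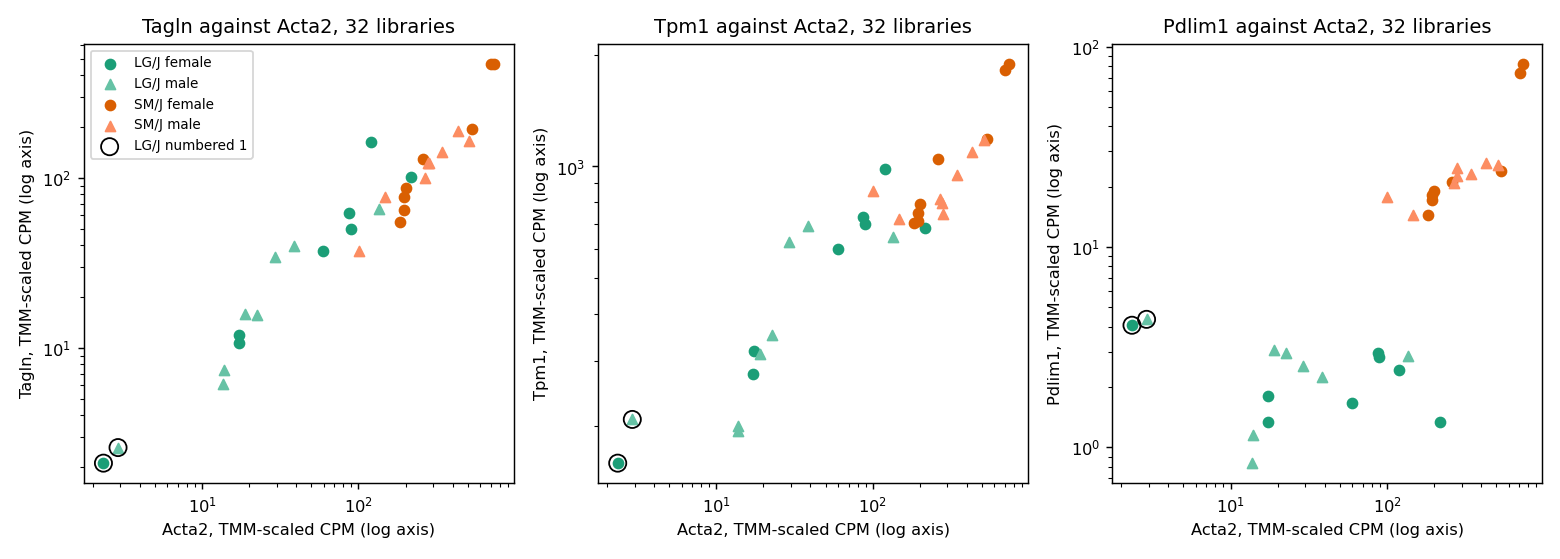
Tagln, Tpm1 and Pdlim1 (y axes) against Acta2 (x axis) in TMM-scaled CPM on log axes, with each of 32 libraries a point marked by strain and sex and the LG/J libraries numbered 1 ringed. Tagln and Tpm1 rise with Acta2 across both strains, whereas Pdlim1 forms separate bands, LG/J at or below 4.355 CPM and SM/J at or above 14.43 CPM, and the pair of ringed points lies at the left.

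Related genes outside the 10 were read from 10 lists drawn from pathway knowledge, and 112 of their 116 genes passed the filter. In LG/J 13 of the 112 were higher and 22 lower (edgeR adjusted p under 0.05), against 16.4% and 13.5% of all genes, and the median log2 difference was -0.11 against 0.02. Without the mixed-sex set, 12 were higher and 8 lower, where 10.4% of all genes were lower. Of the 16136 genes kept over all libraries, 2164 were then higher. Without the mixed-sex set the median was 0.04 for the listed genes and 0.02 for all genes. Pdlim2, Actb, Tmod1, Mrtfb, Myocd, Cfl1, Fhl2, Tgfb1i1, Tes, Nuak2, Amotl2 and Postn, named below, were called over all libraries and not without that set. For some of these the size hardly moved: Myocd went from -0.85 to -0.91 (edgeR adjusted p = 0.0519), Mrtfb from 0.18 to 0.16 (edgeR adjusted p = 0.124) and Nuak2 from -1.16 to -0.95 (edgeR adjusted p = 0.0569). Tmod1, Fhl3 and Ccn2 were not called without both LG/J libraries numbered 1. Rhoa was not called when scaled by library size only (edgeR adjusted p = 0.112), Ptk2 with no filter on low counts (edgeR adjusted p = 0.132) and Ajuba without both sets of libraries (edgeR adjusted p = 0.0713).

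The PDZ-LIM relatives went both ways. Pdlim4, also called RIL, was higher in LG/J, at 16.53 ± 6.898 CPM against 6.929 ± 2.879 (SD, n = 16), a log2 difference of 1.25 ± 0.21 (edgeR adjusted p = 2.85e-05). Pdlim2, also called Mystique, was lower by a log2 difference of -0.46 ± 0.12 (edgeR adjusted p = 0.00311), and lost its call without the mixed-sex set (edgeR adjusted p = 0.0822). Ldb3, the muscle Z-disc member, was at 1.532 and 1.349 CPM and not called, and Pdlim3 was removed by the filter. Of the actin isoforms, 1 of 4 was called: Actb, cytoplasmic beta actin, at -0.36 ± 0.11 (edgeR adjusted p = 0.0136), which lost its call without the mixed-sex set (edgeR adjusted p = 0.212). The muscle actins Acta1 and Actg2 gave 0.08 and -0.64 and were not called, and Actc1 was removed by the filter. Actg1 gave 0.32 ± 0.29 at only 2.25 and 1.779 CPM. It has 4 near-identical copies, so its level is uncertain. None of Cnn3, Tagln2 and Tagln3 was called.

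Tropomyosin relatives and filament caps included Lmod1, a smooth muscle leiomodin that nucleates actin, which was lower in LG/J by -1.37 ± 0.26 (edgeR adjusted p = 0.000132) at 0.9658 against 2.574 CPM. Tpm3 was higher by 0.98 ± 0.11 (edgeR adjusted p = 5.76e-09), but its near-identical copy Tpm3-rs7 was at 1.441 ± 0.5147 CPM in LG/J and 59.83 ± 11.8 in SM/J. Summed, the pair had 128.5 ± 28.91 CPM in LG/J and 124.1 ± 21.94 in SM/J, means that differ by less than their SDs. Tmod1, a cap of the pointed end, gave 0.82 and shares exons with Tstd2 on the opposite strand. Of 15 myosin II genes and regulators, 2 were higher and 1 lower: Myh10, the non-muscle heavy chain IIB, was higher by 0.59 ± 0.09 (edgeR adjusted p = 3.5e-06), Rock2, a kinase that acts on myosin, by 0.28, and Myl6, the essential light chain, fell by 0.46 on the log2 scale. Myl6 has 4 near-identical copies and is uncertain.

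SRF itself was not called, at 0.12 on the log2 scale (edgeR adjusted p = 0.597), nor was its cofactor Mrtfa, at -0.25 (edgeR adjusted p = 0.187). Mrtfb was slightly higher in LG/J, by 0.18 ± 0.06 (edgeR adjusted p = 0.0226). Myocd, the cofactor of smooth and cardiac muscle, was lower at 0.5284 against 0.9502 CPM (edgeR adjusted p = 0.0432). Among the 16 genes of this list 2 were higher and 5 lower. The others lower were the cofilins Cfl2 at -0.33 ± 0.05 and Cfl1 at -0.36 ± 0.10, which sever actin filaments, the GTPase Rhoa at -0.15 ± 0.04, and Fhl2, a LIM-only protein that competes with MRTF for SRF, at -0.99 ± 0.32. Scai, a repressor of MRTF, was higher by 0.45 (edgeR adjusted p = 0.0019). Rhoa and Cfl1 have near-identical copies.

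Among 30 other SRF and MRTF target genes, LG/J was higher in 2 and lower in 7, with a median of -0.15, and 2 were lower without the mixed-sex set. Csrp2, a smooth muscle LIM protein, differed most, at 9.573 ± 2.191 CPM in LG/J and 52.22 ± 18.43 in SM/J (SD, n = 16) with no overlap of the strains. That is 5.45-fold lower in LG/J, -2.45 ± 0.14 on the log2 scale (edgeR adjusted p = 2.39e-15). Synpo2, or myopodin, was lower by -1.05 ± 0.17, and Tgfb1i1, or Hic-5, by -0.58 ± 0.15. Csrp1, the close relative of Csrp2, was higher by 0.95 ± 0.11 (edgeR adjusted p = 1.15e-08), and Mical2, an actin-oxidising enzyme, by 1.12 ± 0.31 (edgeR adjusted p = 0.00579).

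Of 24 focal adhesion genes and partners of alpha-actinin, 3 were higher and 6 lower. Lims1, the adaptor PINCH, was lower by -0.63 ± 0.13 (edgeR adjusted p = 0.00024), and Tes, or testin, by -0.63 ± 0.21. Fhl3, a LIM-only protein, was higher by 0.81 ± 0.29 and Ptk2, or focal adhesion kinase, by 0.15 ± 0.06. Without the mixed-sex set 4 were higher and 1 lower. Of 12 YAP and TEAD target genes 1 was higher, Ccn2, or connective tissue growth factor, by 0.73 ± 0.24 (edgeR adjusted p = 0.0217), and 3 were lower, among them Nuak2, a kinase, by -1.16 ± 0.30 (edgeR adjusted p = 0.00398), with Ajuba, a LIM adaptor, at -0.42 ± 0.11 and Amotl2, an angiomotin, at -0.32 ± 0.12. Among the matrix genes of myofibroblasts, Postn, or periostin, was lower by -0.96 ± 0.33 (edgeR adjusted p = 0.0245). Tnc, or tenascin C, was higher by 1.20 ± 0.29. Col1a1, the main collagen of fibroblasts and bone, gave -1.10 ± 0.48 and was not called (edgeR adjusted p = 0.0798).

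**Figure D4:**
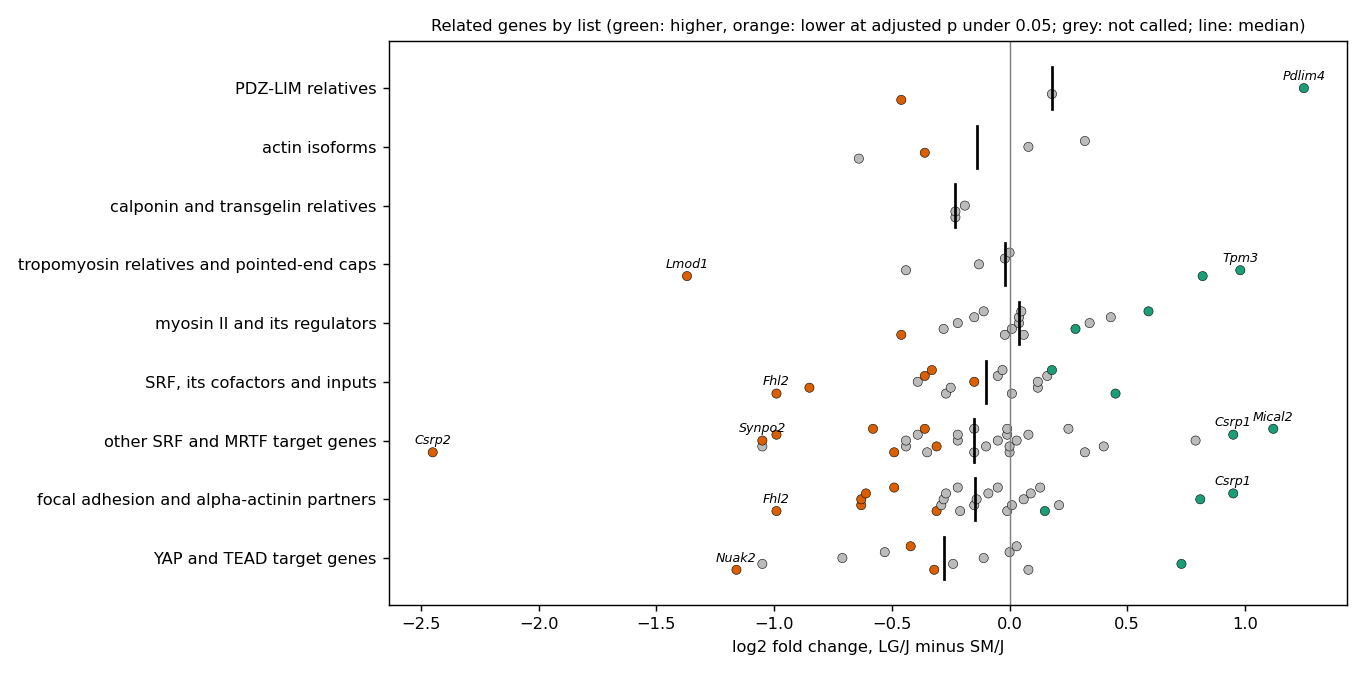
Log2 fold change (LG/J minus SM/J, x axis) of each gene in 9 lists of related genes (y axis), with genes called higher in green, called lower in orange and not called in grey, and the list median as a line. Called genes lie on both sides of 0 in 7 of the 9 lists drawn, and the median lies between -0.28 and 0.18 in each.

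Markers of other cell types were summed per library and set beside these values. Smooth muscle markers, 8 genes, summed to 29.83 to 58.12 CPM in LG/J and 39.96 to 71.14 in SM/J, with 0 called higher and 3 lower in LG/J. Lmod1, Synpo2 and Myocd of that list also stand in the lists above. Myh11, the myosin heavy chain that defines smooth muscle, was near 0 in both strains, at 0.8394 CPM in LG/J and 0.6216 in SM/J, as was Des, or desmin, at 0.6912 and 0.8596. Pericyte markers, 7 genes, ran from 152.6 to 478.7 and from 216 to 489.9 CPM, with 2 higher and 1 lower, and Rgs5 was at 4.027 and 2.4 CPM. Of 10 skeletal muscle markers 4 passed the filter, 1 was lower, and the sums were 5.733 to 24.06 and 12.95 to 42.94 CPM. Endothelial markers, 4 of 7 past the filter and none called, summed to 1.626 to 10.46 and 1.639 to 9.905 CPM, with Pecam1 at 1.439 and 1.466.

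Of 9 macrophage markers past the filter, 3 were lower in LG/J, 0 were higher and 6 were not called. The whole list summed to 29.42 to 1687 CPM (median 67.41) against 80.82 to 1059 (median 295.5). The highest sum of all libraries was in LG/J male 6, which had the highest Acta2 of the LG/J males. SM/J female 2, with the highest sum of its strain, had Acta2 at 195.2 CPM, below the SM/J female median of 230.4. Ptprc, the pan-leukocyte CD45, was at 2.953 and 5.619 CPM. Fibroblast markers, 11 genes, summed to 4975 to 28691 and 5801 to 18790 CPM, with 1 higher and 3 lower. Osteoblast markers, 6 genes, summed to 548.1 to 3850 and 694.7 to 2805 CPM, with 1 higher and 0 lower. Chondrocyte markers, 13 genes, summed to 1728 to 39751 CPM in LG/J and 9123 to 28083 in SM/J, with 3 higher and 0 lower, with Acan at 2136 and 1119 CPM and Sox9, the chondrocyte master regulator, at 456 and 329.5. LG/J female 1 and male 1 held the highest fibroblast sums, 28054 and 28691 CPM, and the lowest chondrocyte sums, 1728 and 2764 CPM. Col1a1, a gene of the fibroblast list, was at its lowest of all libraries there, 28.73 and 62.49 CPM. The genes of that list thus did not move together. No marker was at 0 in every library. The part of these cell types in the strain differences of the contractile genes was not tested.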

How the data were processed

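Bulk RNA sequencing of 32 chondrocyte libraries was analysed per gene. The authors deposited, per library, raw counts, CPM and RPKM for 41388 Ensembl genes, per the file headers. Per the submitters' processing notes the build was GRCm38 and the tools STAR 2.0.4b, Subread and featureCounts 1.45. No source used here gives the annotation release or the strand setting. The deposited CPM equals count over total, and RPKM equals CPM per kilobase. The counts were the input, and CPM per kilobase was recomputed after TMM scaling. Symbols came from a gene name table and matched 40254 identifiers; the 1134 without a symbol held 0.109% of counts.

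Counts were filtered with filterByExpr, scaled by TMM and fitted in edgeR 4.0.16 (quasi-likelihood, robust, 1 mean per strain-and-sex group), with Benjamini-Hochberg adjustment over all genes kept and a threshold of 0.05. The 95% intervals use the normal quantile times the SE. Contrasts were strain, sex and their interaction. Alternatives were 3 other scalings, no filter and a filter of 1 CPM in 8 libraries, DESeq2 1.42.0, limma 3.58.1 voom with quality weights, a replicate block, leaving out libraries and summing 6 close pairs. The fit was tested on simulated data. Near-identical copies were found with BLAST. Overlaps were read from the exon coordinates deposited with the counts, and the transcripts searched with BLAST came from GENCODE M21.

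The members and gene lists were chosen with earlier results of these data known. Named genes were all members, up to 3 genes each way with the smallest p per list, fixed relatives and markers, and the 5 genes most like Acta2 and Pdlim1, leaving out predicted genes and pseudogenes. A listed matrix gene is not reported here. Pcsk7, Gm48529, Tpm3-rs7, Tstd2, Xist, Ddx3y, Il6 and Spp1 are named as context.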

Additional observations from a re-analysis of the deposited data

Results flagged for a closer look

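Within each group of 8, a library was singled out when its gap to its nearest neighbour exceeded Dixon's 95% limit for 8 values, as a share of the group's range. Of 40 groups of values tested, 5 held such a library. The rule was applied to CPM and not to its log. A chance rate of about 1 in 20 would need independent, normally distributed values. These genes share libraries and several vary together, so the count is a description and is not compared with that rate. The highest pair of SM/J females in Pdlim1 could not be singled out by this rule, because each lay near the other. LG/J male 6 had Acta2 at 135.7 CPM, the highest of its group, and in the same library macrophage markers summed to 1687 CPM. LG/J female 2 had Cnn1 at 17.12 CPM and SM/J female 1 had Cnn1 at 18.18 CPM. LG/J female 3 stood out in both Pdlim5, at 101.5 CPM, and Pdlim7, at 84.04 CPM.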

How the results depend on the processing

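Of the 8 tested members 5 were called lower in LG/J, and 5 in each of the 32 fits without 1 library. The count was 3 without the mixed-sex set of 6 libraries and 3 without that set and the LG/J libraries numbered 1; Cnn2 and Tpm2 lost their calls. It was 5 under every other alternative. Estimates that reversed, none of them called, included Cnn1 for strain (0.03 scaled by library size only, 0.10 without the LG/J libraries numbered 1, 0.28 without the mixed-sex set, 0.46 without both sets, and from -0.35 to 0.32 without 1 library), Myl9 for strain (0.05 without the mixed-sex set, 0.22 without both sets), Pdlim1 for sex (0.05 and 0.07) and Pdlim1 for the interaction (-0.16 and -0.15), in the same order. Interaction estimates near 0 also reversed: Cnn2 went from 0.02 to as low as -0.44 and Pdlim7 from 0.03 to -0.43 without both sets, Pdlim5 from 0.20 to -0.07 with the close pairs summed, and Cnn1 from -0.11 to 0.42 in limma voom. Among the related genes, 8 were higher with no filter on low counts. The number lower was 8 without the mixed-sex set, 7 without both sets and 11 with the close pairs summed. It ranged from 17 to 27 without 1 library, and the number higher from 10 to 14. The cause of these shifts was not tested. No member was called for sex or interaction under any alternative run.

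The labels do not say that library numbers pair samples, and the data did not meet the limit for pairing: 30 of 48 same-numbered pairs correlated above 0.1, and in 6 of 48 comparisons the own number was the best match. Between LG/J females and LG/J males 7 of 8 pairs were above 0.1, with correlations from -0.02 to 0.84; the LG/J libraries that stand apart share the number 1. With the replicate block 5 members were called lower. At 15840330 to 25571598 counts per library, Myh11 and other genes near 1 CPM rest on few reads. Cnn1 rested on 13 to 384 counts per library, and Pdlim1 in LG/J on 19 to 70.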
